A study of Mus musculus with 8 samples.

Results

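The genes described here are those of the proteasome, its activators and its assembly factors, in mouse hearts with and without CITED4. The rule takes genes by their name and uses no measured value: all genes whose platform symbol begins with Psm, one of the letters a to g and a digit, on probe sets with exactly 1 symbol. This gave 49 of 22180 genes, each read from its brightest probe set. Of the 49 genes, 47 passed the filter on dim signals, a mean of at least 3.80 (log2), as did 15086 genes in all. The other 2, Psmb11 and Psmg4, are given as values only. Psmc3ip, a recombination factor, and Psme3ip1, a binding partner of the activator Psme3, share the name pattern and are not proteasome subunits, so they are kept apart. Psma4 has no member here, because its probe sets also carry the symbol AY074887.

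All 8 arrays measured total RNA of whole hearts from male C57Bl6N mice taken 1 week after transverse aortic constriction (TAC), an operation that narrows the aorta and loads the left ventricle with pressure. The study set 4 hearts with a knockout of CITED4, a transcriptional co-regulator, against 4 floxed control hearts. There was no unoperated heart, so every value is one of a pressure-loaded heart. The sources used here give neither the Cre line nor the age of the mice, nor whether the controls carried Cre, so any effect of Cre is part of the comparison. Numbered samples were treated as separate hearts, since nothing in the labels says otherwise. The p-values reflect only the variation among these 8 samples.

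The proteasome degrades proteins that carry ubiquitin chains. Its core particle is a barrel of stacked rings, in which Psma genes encode the outer alpha rings and Psmb genes the inner beta rings. Psmb5, Psmb6 and Psmb7 encode the standard catalytic subunits. The regulatory particle caps the barrel: its Psmc subunits are ATPases that unfold substrates, and its Psmd subunits bind, deubiquitinate and feed them. Under interferon, and constitutively in many immune cells, Psmb8, Psmb9 and Psmb10 take the places of Psmb5, Psmb6 and Psmb7, and the Psme1 and Psme2 products form the activator PA28. This form, the immunoproteasome, favours peptides that fit MHC class I. In heart muscle the proteasome clears damaged and misfolded proteins, and its activity has been studied widely under pressure load.

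The targeted gene matched the labels. Cited4 was at 5.89, 5.76, 6.05 and 6.22 in control replicates 1 to 4 and 5.26, 5.15, 4.83 and 5.02 in knockout replicates 1 to 4 (log2 signal), with no overlap. The difference was -0.91 ± 0.12 (log2, SE; adjusted p = 0.277 with limma). Array medians lay between 4.29 and 4.33. On whole-heart RNA, fewer cells of a type and less RNA per cell cannot be told apart. The markers fixed for the heart were bright, with the mean of Myh6, the adult fast myosin heavy chain gene, at 11.99 in the controls and 11.64 in the knockouts. No gene on the arrays passed at an adjusted p of 0.05, 0% of 15086.

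The proteasome genes as a whole differed little between the genotypes. Over the 47 tested genes the median difference, knockout minus control, was -0.0080 (log2), beside 0.0038 over all genes tested. It was positive in 23 and negative in 24, a share of 48.9% positive against 51.2% of all genes. The differences ran from -0.31 for Psma8 to 0.28 for Psmb9. In 32 of the 47 the difference was smaller than 0.1, beside 51.5% of all genes, and in 3 it was at least 0.2, beside 20.3%. The 95% interval of the difference lay within 0.5 on either side of 0 in 45 of 47, beside 82.3% of all genes. These genes also varied little between hearts of a group: their median within-group SD was 0.09, beside 0.15 over all genes tested. That was not particular to them, with 0.08 over 9 ubiquitin-activating and conjugating genes and 0.12 over 22 proteasome partners outside the name rule. Signal level was not matched between these sets. None of the 47 passed at an adjusted p of 0.05. At an unadjusted p under 0.05 there was 1 gene higher, Psmb9, where 5.64% of all genes were, and 2 lower, Psma8 and Psma1, where 5.61% were. The 4 knockout values lay wholly above the 4 control values in 1 gene (Psmb9) and wholly below them in 3 (Psma1, Psmd3 and Psmc6), where 2.33% and 2.9% of all genes did. In either direction these 4 genes were 8.51% of the 47, beside 5.23% of all genes. The share at an unadjusted p under 0.05 was 2.13% higher and 4.26% lower, in each direction below that of all genes, whereas the share wholly below the controls, 6.38%, was above it and rested on 3 genes with differences of at most 0.16.

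**Figure D1:**
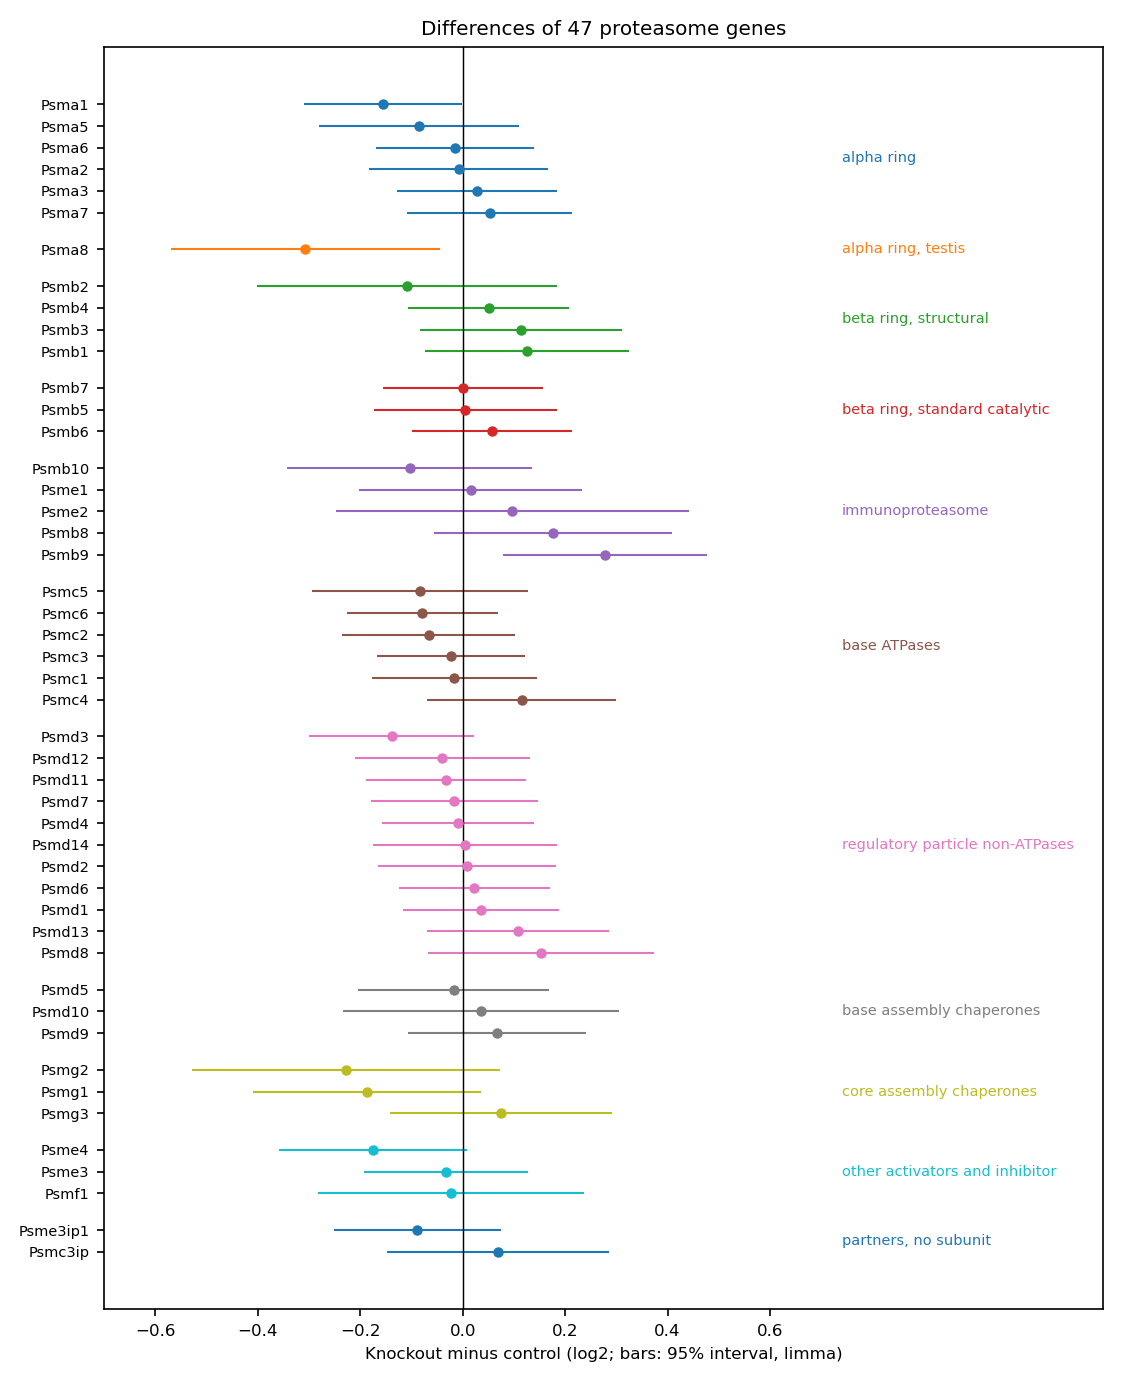
Difference between knockout and control hearts (log2, x axis) for the 47 tested genes, ordered within their class, with bars for limma's 95% interval from 4 arrays per group. Most points sit within 0.1 of 0, and the points farthest out are Psma8 at -0.31 and Psmb9 at 0.28.

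The immunoproteasome genes were the class with the highest median difference among those with more than 1 gene. Of its 5 genes 4 were higher and 1 lower on average in the knockout, with a median of 0.10 and a range of -0.10 to 0.28. None passed after adjustment. With control replicate 2 left out the median was 0.21, with knockout replicate 1 left out 0.18, with control replicate 1 left out 0.02 and with control replicate 4 left out 0.06. The within-group SD of this class, 0.15 in the median, was larger than the 0.07 of the 13 standard core genes.

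Psmb9, which encodes the beta1i catalytic subunit (LMP2), had the clearest separation. Its signal was 5.53, 5.29, 5.60 and 5.56 in control replicates 1 to 4 and 5.85, 5.81, 5.79 and 5.64 in knockout replicates 1 to 4. The groups did not overlap, but the highest control (5.60) and the lowest knockout (5.64) nearly touched, and control replicate 2 was the lowest array. The difference was 0.28 ± 0.09 (log2, SE; 95% interval 0.08 to 0.48), or 121% of the control signal, with an unadjusted limma p of 0.0110 and an adjusted p of 0.421. By exact permutation over the arrays, two-sided, p was 0.0286, which is the floor for groups of 4. Over the alternatives the difference ran from 0.21 to 0.32, with an unadjusted limma p between 0.0077 and 0.0334 and an adjusted p between 0.245 and 0.988.

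Psmb8, which encodes beta5i (LMP7), was at 6.67, 6.72, 6.52 and 6.57 in control replicates 1 to 4 and at 6.79, 7.05, 6.78 and 6.57 in knockout replicates 1 to 4. Knockout replicates 1, 2 and 3 lay above all controls, while knockout replicate 4 lay among them. The difference was 0.18 ± 0.10 (SE; 95% interval -0.06 to 0.41, adjusted p = 0.531 with limma). It was 0.09 without knockout replicate 2 and 0.25 without knockout replicate 4. Psmb10, which encodes beta2i (MECL-1), was at 8.54, 8.61, 8.46 and 8.47 in the controls and at 8.14, 8.51, 8.65 and 8.35 in the knockouts. Here knockout replicate 1 was the lowest and knockout replicate 3 the highest of the 8 arrays. Its difference was -0.10 ± 0.11 (SE; 95% interval -0.34 to 0.14, adjusted p = 0.729 with limma). It was -0.01 without knockout replicate 1 and -0.18 without knockout replicate 3.

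The PA28 activator genes showed no separation. Psme1 (PA28 alpha) was at 8.97, 8.96, 8.86 and 9.02 in the controls and at 8.90, 9.16, 9.06 and 8.74 in the knockouts, so that the knockout values bracketed the controls. Its difference was 0.02 ± 0.10 (SE; 95% interval -0.20 to 0.23, adjusted p = 0.965 with limma). Psme2 (PA28 beta) was at 5.90, 6.47, 6.16 and 6.04 in the controls and at 5.97, 6.26, 6.13 and 6.61 in the knockouts. It had the largest standard error of the 47 genes, with a difference of 0.10 ± 0.15 (SE; 95% interval -0.25 to 0.44, adjusted p = 0.836 with limma). The interval leaves room for a change of either sign. A further probe set that carries Psme2 together with 9930111J21Rik1 and 9930111J21Rik2 differed by -0.01.

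The standard catalytic subunits stayed close to the control level. Psmb5 (beta5) was at 7.84, 7.76, 7.88 and 7.81 in the controls and at 7.99, 7.79, 7.83 and 7.70 in the knockouts. Its knockout replicates 1 and 4 were the highest and lowest arrays, and its difference was 0.0054 ± 0.08 (SE; 95% interval -0.17 to 0.18). Psmb6 (beta1) was at 8.07, 8.09, 8.12 and 8.13 in the controls and at 8.26, 8.15, 8.15 and 8.08 in the knockouts. Knockout replicates 1, 2 and 3 lay above all controls, by little, and the difference was 0.06 ± 0.07 (SE; 95% interval -0.10 to 0.21). Psmb7 (beta2) was at 9.89, 9.99, 10.001 and 9.90 in the controls and at 10.007, 9.95, 9.94 and 9.88 in the knockouts. Both group means were 9.94, with a 95% interval of the difference from -0.16 to 0.16. Over these 3 genes no interval reached farther from 0 than 0.21.

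**Figure D2:**
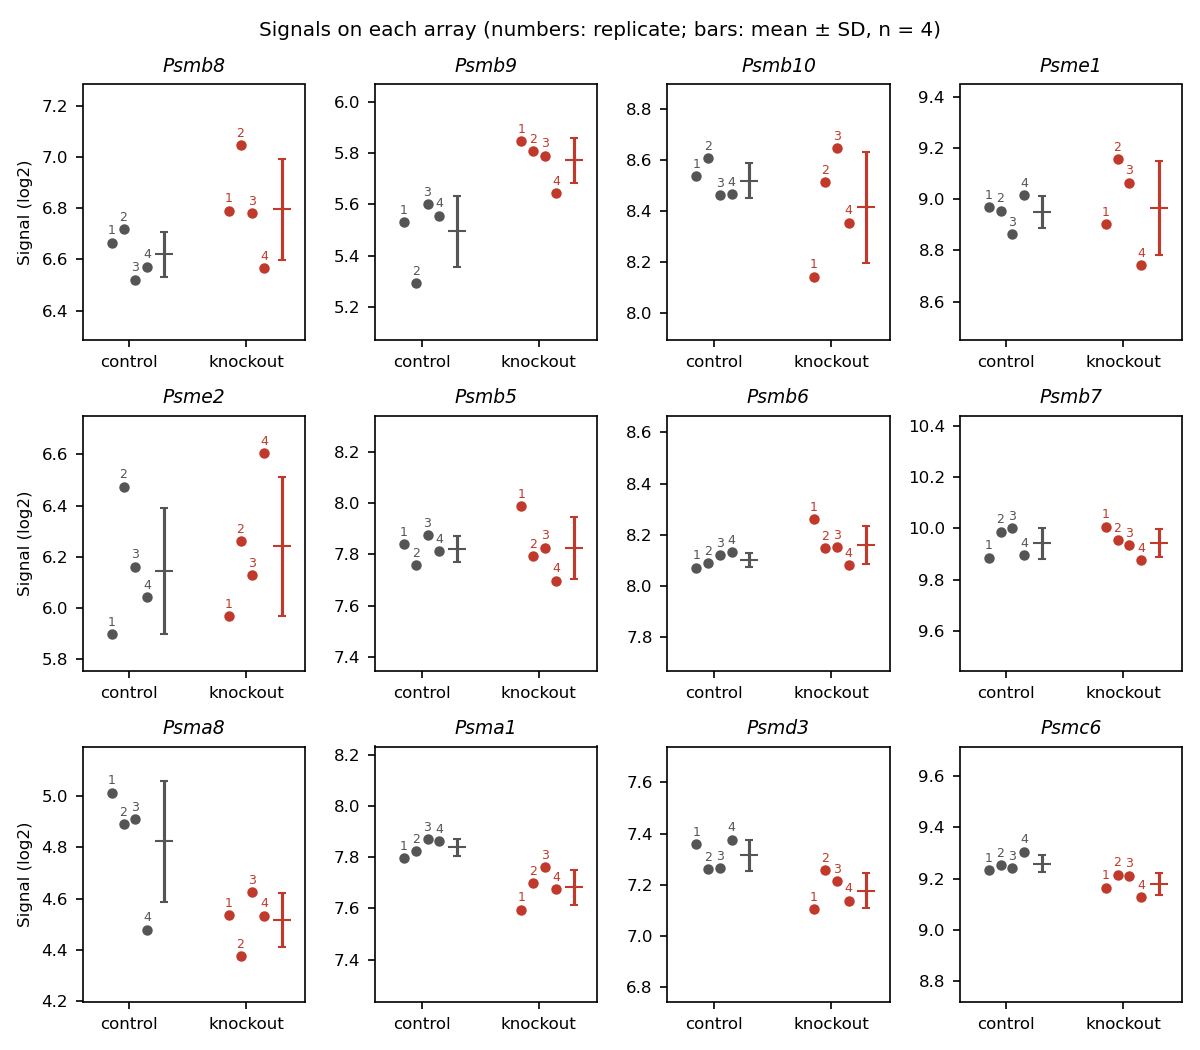
Signal (log2, y axis, each panel spanning 1 unit) on each of the 8 arrays for the immunoproteasome genes, the standard catalytic subunits and the other genes named by p or by separation. Points carry the replicate number, and bars show mean ± SD (n = 4). Psmb9 sits higher in all 4 knockouts, whereas Psma1, Psmd3 and Psmc6 sit lower by 0.16, 0.14 and 0.08.

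Each immunoproteasome catalytic subunit was then set against the standard subunit it replaces, within each array. Only the change of this within-array difference between the groups is read, since signals of different probe sets are not on one scale. With the control mean set to 0, Psmb9 minus Psmb6 was at 0.07, -0.19, 0.09 and 0.03 in control replicates 1 to 4 and at 0.19, 0.27, 0.25 and 0.17 in knockout replicates 1 to 4. All 4 knockouts lay above all 4 controls. The change was 0.22 ± 0.07 (SE from the group SDs), or 117% of the control ratio. By the same exact permutation test p was 0.0286, the floor, with an adjusted p of 0.0857 over the 3 pairs. A pair at the floor can pass this correction only if another pair is at the floor too. The adjusted p therefore could not have been lower for this pair alone. Psmb8 minus Psmb5 changed by 0.17 ± 0.12, with 4 of 4 knockouts above the control mean and 1 above all controls (exact permutation p = 0.229, adjusted p = 0.343). Knockout replicates 1 to 4 of this pair were at 0.004, 0.455, 0.156 and 0.069, and the controls between -0.152 and 0.163. Psmb10 minus Psmb7 changed by -0.10 ± 0.13, with 1 of 4 knockouts above the control mean (exact permutation p = 0.571, adjusted p = 0.571). Psmb8 and Psmb9 were thus higher and Psmb10 lower against their counterparts on average. Without knockout replicate 2 the Psmb9 change was 0.20 and missed the threshold (exact permutation p = 0.0571), and the Psmb8 change was 0.08. Without knockout replicate 1 the Psmb10 change was 0.0079.

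**Figure D3:**
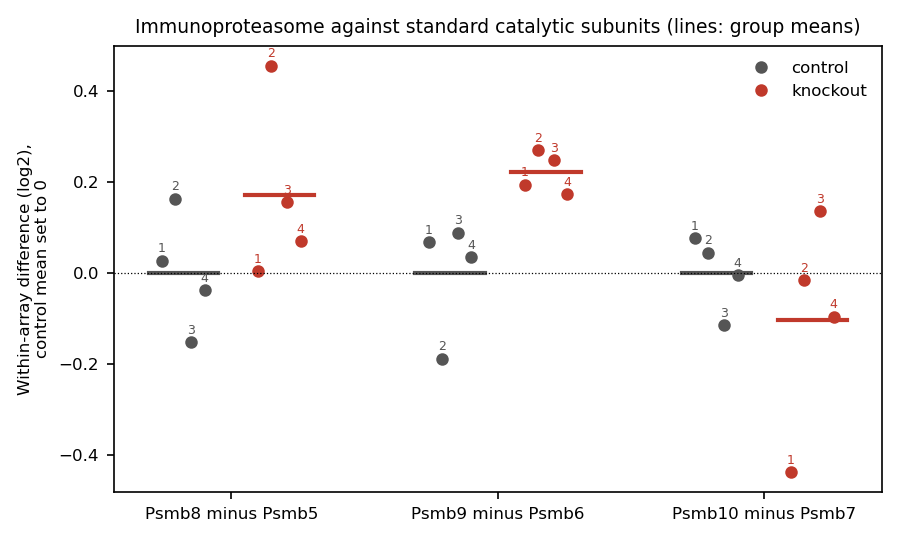
Within-array difference (log2, y axis) between each immunoproteasome catalytic subunit and the standard subunit it replaces, with the control mean of each pair set to 0. Points carry the replicate number and horizontal lines are group means. The Psmb9 pair is higher in all 4 knockouts, at 0.17 to 0.27, and the Psmb10 pair spreads from -0.44 to 0.14 in the knockouts.

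Psmb9 lies next to Tap1, a peptide transporter gene of MHC class I presentation, and both start from the short stretch between them in opposite directions. Tap1 was at 6.60, 6.20, 6.08 and 6.24 in the controls and at 6.14, 6.42, 6.41 and 6.46 in the knockouts, with overlap and a difference of 0.08 ± 0.12 (SE; 95% interval -0.19 to 0.35, adjusted p = 0.827 with limma). The letters of the stretch between the starts of Psmb9 and Tap1 are shown because the neighbours share it, and those before Psmb8, Psmb6 and Psmb5 because these genes form the pairs above. All are from RefSeq on GRCm38.p6, 5′ to 3′ on the gene's own strand, ending at the base before the start of Psmb9, Psmb8, Psmb6 or Psmb5. Capitals mark matches to the 4 motifs described after the sequences.
Psmb9-Tap1, chr17:34187331-34187555, minus strand, 225 bases: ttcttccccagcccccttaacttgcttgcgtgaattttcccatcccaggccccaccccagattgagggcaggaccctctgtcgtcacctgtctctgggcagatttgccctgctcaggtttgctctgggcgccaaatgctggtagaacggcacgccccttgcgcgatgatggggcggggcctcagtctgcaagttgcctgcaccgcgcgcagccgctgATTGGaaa
Psmb8, chr17:34197945-34198194, plus strand, 250 bases: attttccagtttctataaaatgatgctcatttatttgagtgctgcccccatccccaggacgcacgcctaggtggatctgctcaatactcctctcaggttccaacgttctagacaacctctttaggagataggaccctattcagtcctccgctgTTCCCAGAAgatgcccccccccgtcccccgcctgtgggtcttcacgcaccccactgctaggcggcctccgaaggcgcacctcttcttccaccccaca
Psmb6, chr11:70525107-70525356, plus strand, 250 bases: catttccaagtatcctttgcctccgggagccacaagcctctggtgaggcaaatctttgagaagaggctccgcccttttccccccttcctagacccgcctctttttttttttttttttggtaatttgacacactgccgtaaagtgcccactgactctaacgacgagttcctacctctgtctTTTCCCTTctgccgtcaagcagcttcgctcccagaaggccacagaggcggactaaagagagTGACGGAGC
Psmb5, chr14:54617996-54618245, minus strand, 250 bases: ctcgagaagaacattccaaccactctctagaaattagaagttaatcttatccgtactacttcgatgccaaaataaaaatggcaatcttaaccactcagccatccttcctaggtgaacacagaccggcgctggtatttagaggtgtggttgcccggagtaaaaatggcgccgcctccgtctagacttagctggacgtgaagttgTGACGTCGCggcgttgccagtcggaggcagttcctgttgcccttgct
The motifs were searched on both strands in the 250 bases before each start. They were the core that interferon regulatory factors bind, AANNGAAA, the gamma-activated site core TTCNNNGAA, the antioxidant response element core TGACNNNGC, which NRF1 and NRF2 factors bind, and the NF-Y box CCAAT. Matches of different motifs were counted separately even where they overlapped. RefSeq gave a promoter for 41 of the 49 genes, the exceptions being Psma8, Psmb1, Psmb2, Psmb7, Psmc3, Psmd3, Psmd7 and Psmg2. The gamma-activated site core was found in 2 of 41 (4.88%) and in 8.13% of 27025 genes with a promoter, and Psmb8 was the immunoproteasome gene that held it, as TTCCCAGAA. The antioxidant core was found in 5 of 41 (12.2%, beside 11.5% of all), among them Psmb6 as TGACGGAGC and Psmb5 as TGACGTCGC, and in 0 of the 5 immunoproteasome genes. The interferon regulatory factor core was found in 10 of 41 (24.4%, beside 23.9%), Psmb6 included as TTTCCCTT on the other strand, and in 0 of the 5 immunoproteasome genes. The NF-Y box was found in 16 of 41 (39%, beside 37.5%), Psmb9 included. A match is a string of letters and not evidence of binding, and its absence covers only this window.

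On the probe sets used, the remaining genes of the standard core differed by at most 0.16. Psma5, an alpha ring gene, was read from a dim probe set with a mean of 4.06. Its second probe set, below the filter, differed by 0.52, with knockouts at 3.59 to 3.92 wholly above controls at 3.20 to 3.30. Of the 6 alpha ring genes 2 were higher and 4 lower, from -0.16 (Psma1) to 0.05 (Psma7), and the median was -0.01. Psma1, which encodes the alpha6 subunit, was at 7.80, 7.82, 7.87 and 7.86 in the controls and at 7.60, 7.70, 7.76 and 7.68 in the knockouts. Every knockout was below every control, with a difference of -0.16 ± 0.07 (SE; 95% interval -0.31 to -0.00076), or 89.8% of the control signal. Limma gave an unadjusted p of 0.0491 and an adjusted p of 0.444, and the exact permutation p was 0.0286. Its control SD was 0.035. The difference was -0.11 without knockout replicates 1 and 4. Of the 4 structural beta ring genes 3 were higher, from -0.11 (Psmb2) to 0.13 (Psmb1), with a median of 0.08. Over the 13 standard core genes the median was 0.0054, with 8 higher and 5 lower.

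Psma8 encodes the alpha subunit of the testis proteasome, in which it takes the place of Psma7. Its signal was dim, at 5.01, 4.89, 4.91 and 4.48 in the controls and 4.54, 4.37, 4.62 and 4.53 in the knockouts. Controls 1, 2 and 3 lay above all knockouts, and control replicate 4 lay among the knockouts. The difference was -0.31 ± 0.12 (SE; 95% interval -0.57 to -0.04, unadjusted p = 0.0262 with limma, adjusted p = 0.421 with limma), and the exact permutation p was 0.114. Psma7, its somatic counterpart, differed by 0.05 ± 0.07. Psmb11, the catalytic subunit of the thymus, was below the filter (controls 3.80 ± 0.19, knockouts 3.73 ± 0.12; SD, n = 4).

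The regulatory particle showed the same narrow range. Its 17 genes had a median of -0.02, with 7 higher and 10 lower. An unadjusted limma p under 0.05 was seen in 0 of 17, beside 11.2% of all genes in either direction. Of the 6 ATPases 5 were lower and 1 higher, from -0.08 (Psmc5) to 0.12 (Psmc4). Psmc6, which encodes the ATPase Rpt4, was at 9.23, 9.25, 9.24 and 9.31 in the controls and at 9.17, 9.22, 9.21 and 9.13 in the knockouts. The groups were separate by a small margin, with a difference of -0.08 ± 0.07 (SE; 95% interval -0.23 to 0.07, adjusted p = 0.656 with limma). The 11 non-ATPase genes ran from -0.14 (Psmd3) to 0.15 (Psmd8), with 6 higher and 5 lower. Psmd3, which encodes the scaffold subunit Rpn3, was at 7.36, 7.262, 7.265 and 7.38 in the controls and at 7.10, 7.256, 7.21 and 7.14 in the knockouts. Knockout replicate 2 lay just under the lowest control, and the difference was -0.14 ± 0.07 (SE; 95% interval -0.30 to 0.02, adjusted p = 0.491 with limma). The exact permutation p was 0.0286 for both Psmc6 and Psmd3. Psmd14, the deubiquitinase at the entry of the particle, differed by 0.0047 ± 0.08, and Psmd4, a ubiquitin receptor, by -0.0089 ± 0.07.

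Assembly factors had the largest single differences among the members outside the catalytic and testis genes, but with wide spreads. Psmg2 (PAC2), which pairs with Psmg1 (PAC1) as a chaperone of the alpha ring, was at 7.22, 7.18, 7.20 and 7.21 in the controls and at 6.53, 7.00, 7.23 and 7.14 in the knockouts. The controls lay between 7.18 and 7.22, and the lower knockout mean came mostly from replicate 1. The difference was -0.23 ± 0.13 (SE; 95% interval -0.53 to 0.07, adjusted p = 0.531 with limma) and -0.08 without knockout replicate 1. Psmg1 differed by -0.19 ± 0.10 (adjusted p = 0.497 with limma) and Psmg3 (PAC3) by 0.07 ± 0.10. Psmg4 (PAC4) was below the filter (controls 3.50 ± 0.10, knockouts 3.61 ± 0.15; SD, n = 4). The 3 chaperones of the base, Psmd5, Psmd9 and Psmd10, ran from -0.02 to 0.07. Over the 6 tested chaperones 3 were higher and 3 lower (median 0.0087).

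The other activators and the inhibitor were lower on average in 3 of 3 cases. Psme4 (PA200), an activator of ubiquitin-independent degradation, was at 9.97, 9.90, 9.72 and 9.77 in the controls and at 9.76, 9.67, 9.66 and 9.57 in the knockouts. Knockouts 2, 3 and 4 lay below all controls, and knockout replicate 1 lay between control replicates 3 and 4. Its difference was -0.18 ± 0.08 (SE; 95% interval -0.36 to 0.0076, adjusted p = 0.457 with limma). Psme3 (PA28 gamma) differed by -0.03 ± 0.07 and Psmf1 (PI31), an inhibitor of the core in the test tube, by -0.02 ± 0.12. Of the name-sharing partners, Psme3ip1 differed by -0.09 ± 0.07 and Psmc3ip by 0.07 ± 0.10.

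Proteasome partners outside the name rule were more often lower than higher at an unadjusted p under 0.05. Of 22 measured partners and regulators 10 were higher and 12 lower (median -0.04), and 0 passed after adjustment. At an unadjusted limma p under 0.05 there were 0 higher and 3 lower (13.6%, beside 5.61% of all genes and 4.26% of the members). The mean deviation of the 22 genes from their 8-array means ran from -0.0083 to 0.03 in the controls and from -0.02 to -0.0087 in the knockouts. The groups thus barely failed to touch, at -0.0083 and -0.0087. Every other list scored in this way overlapped between the groups, and the separation of this score was not tested. Ecpas (ECM29), which tethers the regulatory particle to the core, was at 9.09, 9.09, 9.11 and 9.05 in the controls and at 8.59, 8.99, 8.86 and 8.80 in the knockouts. Its knockout values lay wholly below its controls, in this list 1 of 22 genes (4.55%, beside 2.9% of all genes). The difference was -0.28 ± 0.09 (SE; 95% interval -0.48 to -0.08, unadjusted p = 0.0118 with limma, adjusted p = 0.421 with limma). Zfand5, a stimulator of the proteasome in muscle wasting, differed by -0.25 ± 0.10 and Ube3a, a ubiquitin ligase that binds the particle, by -0.22 ± 0.10, both with overlap. Nfe2l1 (NRF1), the transcription factor that raises proteasome genes when the proteasome is impaired, differed by -0.05 ± 0.07 (95% interval -0.20 to 0.10), and Pomp, the maturation factor of the core, by 0.13 ± 0.12. Of 9 measured ubiquitin-activating and conjugating genes 3 were higher and 6 lower, from -0.15 to 0.09, with a median of -0.05.

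Of the genes that work with the immunoproteasome, 0 passed after adjustment. For MHC class I presentation 10 of 13 were higher (76.9%, beside 51.2% of all genes, median 0.08). At an unadjusted limma p under 0.05 in either direction there were 0 of 13, beside 11.2% of all genes. H2-T23, a non-classical class I gene, differed by 0.34 ± 0.16, Tap2, the partner of Tap1 in the transporter, by -0.21 ± 0.11, and Erap1, a peptide-trimming enzyme, by -0.24 ± 0.13. For interferon signalling 12 of 20 were higher (60%, median 0.07). At an unadjusted limma p under 0.05 there were 2 higher (10%, beside 5.64% of all genes) and 0 lower (beside 5.61%). The 2 were Bst2, a tethering factor against viruses, at 0.61 ± 0.15, and Irf7, a regulator of type I interferon, at 0.34 ± 0.15. Ifit1, an interferon-induced gene, differed by 0.43 ± 0.21 and Isg15, a ubiquitin-like modifier, by 0.33 ± 0.16, both with overlap. The knockout values lay wholly above the controls in Bst2 and wholly below them in Ifngr2. Each was 1 of 20 (5%), beside 2.33% of all genes wholly higher and 2.9% wholly lower. Ifngr2, a chain of the interferon gamma receptor, differed by -0.13 ± 0.07 (adjusted p = 0.526 with limma). Irf1, a factor that drives immunoproteasome genes, differed by -0.11 ± 0.09 (95% interval -0.31 to 0.09), and Nlrc5, the co-activator of class I genes, by 0.07 ± 0.12. Adjusted limma p-values of the genes named in this paragraph lay between 0.421 and 0.859.

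Markers of other cell types moved with some arrays. Of 14 tested leukocyte markers 12 were higher in the knockout (median 0.13), with Ptprc at 0.25 ± 0.17, Csf1r at 0.17 ± 0.09 and Cd68 at 0.05 ± 0.17. The 1 marker at an unadjusted limma p under 0.05 (7.14%, beside 5.64% of all genes) was Nkg7, a gene of natural killer and cytotoxic T cells, at 4.81, 4.87, 4.86 and 4.73 in the controls and 5.37, 5.05, 4.90 and 5.08 in the knockouts. Its groups did not overlap, as in 2.33% of all genes in that direction, and its difference was 0.28 ± 0.10 (adjusted p = 0.421 with limma). The 2 lower markers were Cd14 at -0.20 ± 0.11 and Cd4 at -0.19 ± 0.13. Of the defining markers, Cd3e was dim (controls 4.16 ± 0.24, knockouts 4.32 ± 0.33; SD, n = 4), and Cd79a was below the filter. A score, the mean deviation of a list's genes from their 8-array means, summarised each array. The immunoproteasome score ran from -0.07 to 0.02 in the controls and from -0.06 to 0.17 in the knockouts, highest in knockout replicates 2 and 3. The leukocyte score ran from -0.14 to 0.02 and from -0.09 to 0.19, highest in knockout replicate 3 and lowest of the knockouts in replicate 2. The interferon score ran from -0.26 to 0.17 and from -0.05 to 0.16. Of 10 fibroblast markers 9 were higher (median 0.55), 5 at an unadjusted limma p under 0.05 (50%, beside 5.64% of all genes), and their score ran from -0.46 to 0.18 and from -0.18 to 0.44. Of 10 ventricular markers 7 were lower (median -0.14), 4 at that p (40%, beside 5.61% of all genes), while Myh7, the slow myosin heavy chain gene, was higher at that p (0.35 ± 0.16). Their score ran from 0.02 to 0.09 and from -0.17 to 0.09. Of 10 endothelial markers 7 were lower (median -0.03), 1 at that p (10%, beside 5.61% of all genes), with a score from -0.03 to 0.12 and from -0.21 to 0.19. Of 4 tested atrial markers 4 were higher (median 0.66), 1 at that p (Myl4, 25%, beside 5.64% of all genes). The groups did not overlap in Myl4 (0.39 ± 0.14) and Nppa (0.09 ± 0.07), 50%, beside 2.33% of all genes in that direction. Knockout replicate 2 had an atrial score of 2.46, with Myl7 at 9.02 and Sln at 9.31. On the other arrays this score ran from -0.63 to 0.17. The part of leukocytes, interferon, fibroblasts and atrial tissue in the immunoproteasome values was not tested.

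The scores of the standard proteasome overlapped between the groups. The core score, over 13 genes, ran from -0.04 to 0.03 in the controls and from -0.06 to 0.04 in the knockouts, and the regulatory particle score, over 17 genes, from -0.03 to 0.03 and from -0.02 to 0.03. Smaller classes of the standard core spread about as widely as the 5 immunoproteasome genes: over all 8 arrays the 3 standard catalytic genes ran from -0.08 to 0.12 and the 4 structural beta genes from -0.12 to 0.10. Knockout replicate 4 had the fewest genes above their own 8-array mean, 15 of 47, and control replicate 1 the most, 30 of 47. All 5 immunoproteasome genes lay above their mean in knockout replicate 2 and 0 of 5 in control replicate 3.

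**Figure D4:**
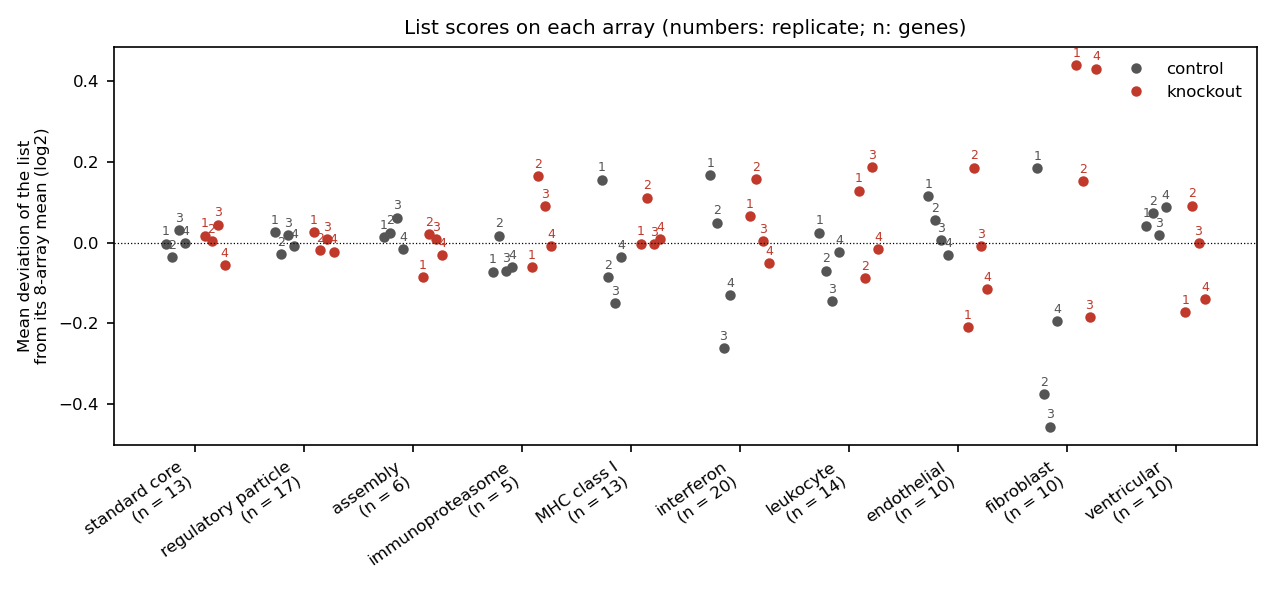
Mean deviation (log2, y axis) of each list's genes from their 8-array means on each array, with points numbered by replicate and the number of genes under each list. The standard core and regulatory particle stay within 0.06 of 0 on every array, and the immunoproteasome reaches 0.17 in knockout replicate 2.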

How the data were processed

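The authors deposited log2 signals of 41345 probe sets on 8 Affymetrix arrays. The submitters' processing notes name RMA and limma, with no version. Genome build and hybridisation batches: not given in the sources used here. RMA equalises the arrays' distributions, which hides any shift common to all genes. Correlations between arrays ran from 0.979 to 0.988. A single symbol was annotated for 23521 probe sets, more than 1 for 1814 and none for 16010. Of those with 1 symbol 23328 took the RefSeq symbol by Entrez identifier. The filter kept genes with a mean signal at or above the 40th percentile over probe sets.

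Knockout was compared with control by limma 3.58.1 in R 4.3.3 (lmFit and eBayes, no trend, not robust), adjusted by Benjamini-Hochberg over all 15086 genes, at a threshold of 0.05. SEs are limma's. The limma step was tested on simulated data, with changes larger than the difference of any tested member. That test therefore does not measure how well differences of the members' size are found. Single values were tested by exact two-sided permutation over 70 assignments. Values on every array are given for the immunoproteasome, the standard catalytic subunits, and members with an unadjusted p under 0.05 or no overlap. Members at the ends of a class's range, Psmg1, Psmg2, Psme3, Psme4, Psmd4, Psmd14 and Tap1 were named after their values were seen, as were partner and marker genes beyond the 3 with the smallest p per list. For the ubiquitin list and the cell type marker lists, those 3 were not all named. Members and lists were chosen with earlier results of these data known. The alternatives were 2 other filters, 2 scalings, the mean of probe sets, 3 variance models, the replicate number as a block, each array left out in turn, and a threshold of 0.1. The removal of knockout replicates 1 and 4 at once was chosen after seeing the data, as were the promoter motifs. The interferon regulatory factor core took the place of a longer interferon-response element, which was searched first and is not reported.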

Additional observations from a re-analysis of the deposited data

Results flagged for a closer look

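Among the 104 groups of 4 arrays examined, of which 49 genes and 3 within-array pairs gave 2 each, 7 had 1 array far from the other 3 by Dixon's test at the 95% level. Chance alone flags about 1 in 20 such groups. In the controls, Psma5 was at 4.257 in replicate 3 against 4.031 to 4.056 in the others, Psmf1 at 6.315 in replicate 3 against 6.511 to 6.534, and Psmc3ip at 4.826 in replicate 1 against 4.444 to 4.472. In the knockouts, replicate 1 was high for Psmc4 (8.407 against 8.141 to 8.169) and Psmd13 (7.037 against 6.809 to 6.817). Replicate 3 was high for Psme3 (6.990 against 6.796 to 6.828), and replicate 4 low for Psmd14 (6.412 against 6.581 to 6.607).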

How the results depend on the processing

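Under the alternatives run, 0 genes passed at an adjusted p of 0.05, and 0 passed at 0.1 under the settings of the report. Psmb9 was higher with an unadjusted p under 0.05 in every setting run, and Psma1 and Psma8 were lower in every setting that tested them, with an unadjusted p under 0.05 in some. Members lower at an unadjusted p under 0.05 numbered 1 with no filter, with quantile normalization, with array weights or with the replicate block, 4 without moderated variances, 0 to 3 with 1 array left out and 0 without knockout replicates 1 and 4. Members higher at that level numbered 1 to 2 with 1 array left out and 2 without knockout replicates 1 and 4 (Psmb8 and Psmb9). The number with a positive difference stayed between 20 and 26 with 1 array left out. With 1 array left out the immunoproteasome median ran from 0.0212 to 0.2068, and without knockout replicates 1 and 4 the assembly median was -0.0512.

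Several differences changed sign, the largest of them Psmb2 at -0.11. With a common median Psmb5 was -0.0005 and Psmb7 -0.0059, and with array weights Psmb7 was -0.0102. Without knockout replicates 1 and 4 Psmb10 was 0.0615, Psmb5 -0.0112, Psmb2 0.1225 and Psmb10 minus Psmb7 0.0598. With 1 array left out Psme1 ran from -0.0476 to 0.0903, Psme2 from -0.0251 to 0.2068, Psmb5 from -0.0484 to 0.0482, Psmb7 from -0.0213 to 0.0225, Psmb2 from -0.2073 to 0.0085, Psmd5 from -0.0782 to 0.0188, Psmf1 from -0.0876 to 0.0699 and Psmb10 minus Psmb7 from -0.1833 to 0.0079. The cause was not tested. Psmb9 minus Psmb6 ran from 0.16 to 0.25 with 1 array left out. It was 0.22 with the replicate block (exact sign-flip p = 0.125) and 0.26 without knockout replicates 1 and 4 (exact permutation p = 0.0667), in each case the smallest p that design allows. The labels do not say what the replicate number stands for. Deviations of same-numbered hearts correlated at 0.36, 0.0087, 0.28 and -0.03 for replicates 1 to 4, which does not settle whether the numbers mark pairs. Psmg2 was -0.03 with the mean of its probe sets. With 4 arrays a group, precision is limited throughout.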

Other observations

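For 3 of the 49 genes a second, dimmer probe set was present. That of Psma5, with a mean of 3.50, differed by 0.52 where the one used, with a mean of 4.06, differed by -0.085. On this second Psma5 probe set the knockout values lay wholly above the control values. That of Psmg2, with a mean of 2.32, differed by 0.17 where the one used differed by -0.23. That of Psmc2 differed by -0.03 beside -0.07. The unused Psma5 and Psmg2 probe sets lay below the filter. The brighter probe set shared by Psma4 and AY074887 had means of 8.54 in the controls and 8.52 in the knockouts, a difference of -0.02, and that shared by Psmd1 and Armc9 differed by 0.07, beside 0.04 for Psmd1 alone.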
